A study of Mus musculus with 8 samples.

Results

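Gastric stem and progenitor marker genes were followed in RNA-seq of the mouse gastric squamous-columnar junction (SCJ), the border where the squamous forestomach meets the glandular stomach. The 9 genes were taken by symbol (Lgr4, Lgr5, Lgr6, Lrig1, Bmi1, Sox9, Prom1, Tnfrsf19 and Cd24a), and all 9 were found among the 23361 genes of the deposited table. The 5 SCJ cancers came from mice with floxed Rb1 and Trp53 (loxP/loxP at each gene, Trp53-/-Rb1-/- in the labels), the Lgr5 eGFP-Ires-CreERT2 knock-in allele and the Ai9 tdTomato reporter. Tamoxifen was given to young adults, and the tumours were dissected many months later along the borders of tdTomato. Control tissue was the SCJ of 3 age-paired wild type mice. The study's methods state tamoxifen for control mice of the tumour induction, but not whether these 3 were among them. Cre was expressed from the Lgr5 locus, and the wild type controls lacked this allele, the floxed alleles and the reporter. For Lgr5 itself, the allele and the tumour therefore cannot be told apart.

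These genes mark or maintain cells that renew epithelia. LGR4, LGR5 and LGR6 are receptors for R-spondins, secreted proteins that keep Frizzled receptors on the cell surface by clearing the ubiquitin ligases RNF43 and ZNRF3, and so raise the response to Wnt. Lgr5 marks cycling stem cells at the base of gastric and intestinal glands, whereas Lrig1, Bmi1, Sox9, Prom1 (CD133), Tnfrsf19 (Troy) and Cd24a have each been used to label stem or progenitor cells in the digestive tract.

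Values are FPKM (fragments per kilobase, which the authors scaled by library size) rounded to whole numbers, so that levels can be set side by side between genes per length. The depth is unknown, so a 0 is written as listed at 0. FPKM summed to between 403569 and 573858 in the cancers and to between 887141 and 992550 in controls, and 10 gastric glandular markers took 0.172% to 13.7% of the sum in cancers and 17.9% to 25.2% in controls. The deleted genes were checked first. Rb1 was at 4, 4, 5, 6 and 4 FPKM in cancers 1 to 5 and at 9, 9 and 10 in controls 1 to 3. Trp53 was at 12, 22, 12, 30 and 12 in cancers and 16, 17 and 19 in controls. These are deposited FPKM. Scaling libraries to equal sums raises the cancers relative to controls, and both genes under that scaling are not given here. A value per gene also does not tell deleted from remaining exons. The labelled tissue was checked against its defining markers. In the controls the 8 squamous and basal markers summed to 1556 to 2599 FPKM and the glandular markers to 158537 to 240752, so both epithelia of the SCJ were present, whereas in cancer 1 the squamous markers were all listed at 0 and the glandular markers summed to 694. Neuroendocrine markers summed to 8130 to 17995 FPKM in the cancers and to 129 to 191 in controls, with 10 of 10 higher in limma, led by Chgb, Scg3 and Scg2 (log2 changes 8.30, 6.98 and 6.46).

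In the deposited FPKM Lgr4 and Cd24a fell in the cancers, and the other members did not pass the test. Neither call was kept after scaling libraries to equal sums (TPM), where Lgr4 was still lower (log2 fold change -0.93) and Cd24a was near 0 (0.05). Of the 8 members tested on log2(FPKM + 1) with limma, 2 were lower and 0 higher at an adjusted p under 0.05. Over all 14357 genes tested, 18.3% were lower and 16.2% higher, so the share of members lower (2 of 8) was near that of other genes. With TPM the members' counts were 2 higher (Prom1 and Lrig1) and 0 lower. The members' median log2 fold change was -0.49, beside -0.04 over all genes tested, and with TPM it was 0.19 beside 0.76 (with TPM, 49.5% of all genes tested were higher and 3.9% lower). At an unadjusted p under 0.05, Tnfrsf19 was also lower. Lgr6 was listed at 0 in all but 1 sample and was not tested, because the filter required 3 samples at 1 FPKM or more. The 8 members that passed it did so with values in both groups. The samples are bulk tissue, in which fewer cells of a type and less RNA per cell cannot be told apart.

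**Figure D1:**
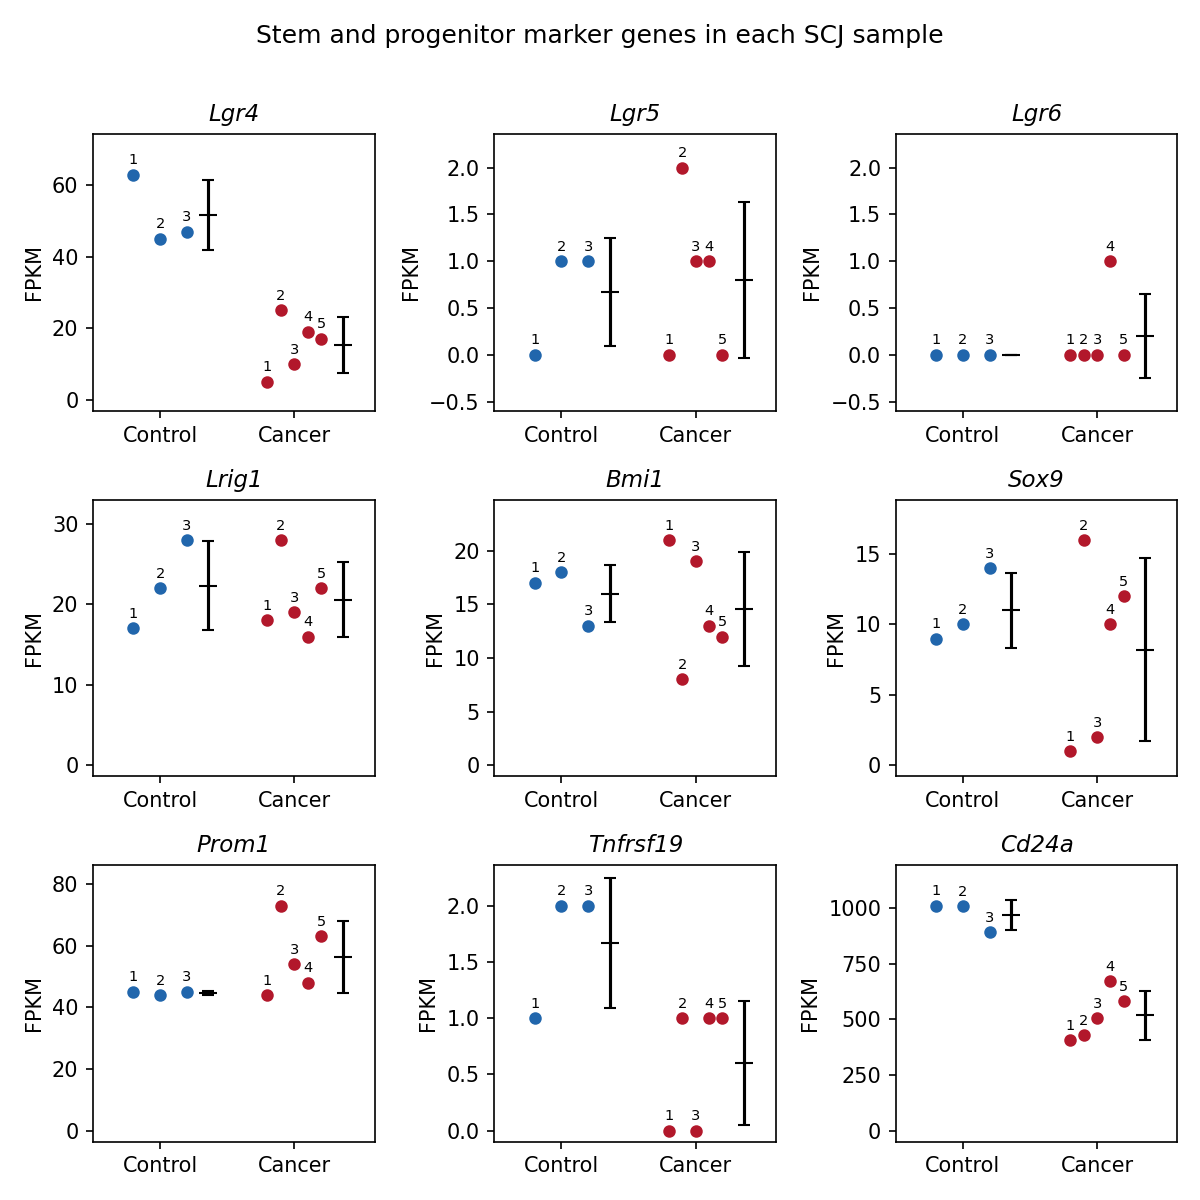
FPKM of each of the 9 members in the 3 controls (blue) and 5 cancers (red), on axes of their own, with replicate numbers above the points and the mean ± SD in black beside each group. In the deposited FPKM Lgr4 and Cd24a are lower in all 5 cancers than in any control (for Cd24a not so after TPM scaling), and the other members overlap between the groups.

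Lgr4, the R-spondin receptor with the broadest expression in epithelia, lies on chromosome 2 from 109917647 to 110014257 (mm10, plus strand). It was at 5, 25, 10, 19 and 17 FPKM in cancers 1 to 5 and at 63, 45 and 47 in controls 1 to 3. Every cancer lay below every control, with no overlap, and the cancers differed among themselves by 5-fold. Cancers had a mean of 15.2 ± 7.82 (SD, n = 5) and controls of 51.7 ± 9.87 (SD, n = 3), so the cancer mean was 29.4% of the control mean. The log2 fold change was -1.86 (standard error [SE] 0.46, limma adjusted p = 0.019), and the two-sided exact permutation test gave p = 0.018, the smallest that 5 against 3 samples allow. Of all genes tested, 19.8% lay with every cancer below every control. The Lgr4 call was lost without control 1, 2 or 3 (adjusted p = 0.077, 0.054 and 0.058 from limma) and with TPM, in which all libraries have equal sums (-0.93, limma adjusted p = 0.061), always with Lgr4 lower.

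The order of the 5 cancers by Lgr4, from cancer 1 through 3, 5 and 4 to 2, was the same as their order by the summed FPKM of the 10 glandular markers (694, 6015, 16662, 55566 and 78716). All controls were above all cancers on both measures. The part of the glandular epithelium in the Lgr4 result was not tested. Sox9 followed nearly the same order, with cancers 4 and 5 exchanged, and Prom1 and Cd24a did not.

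**Figure D2:**
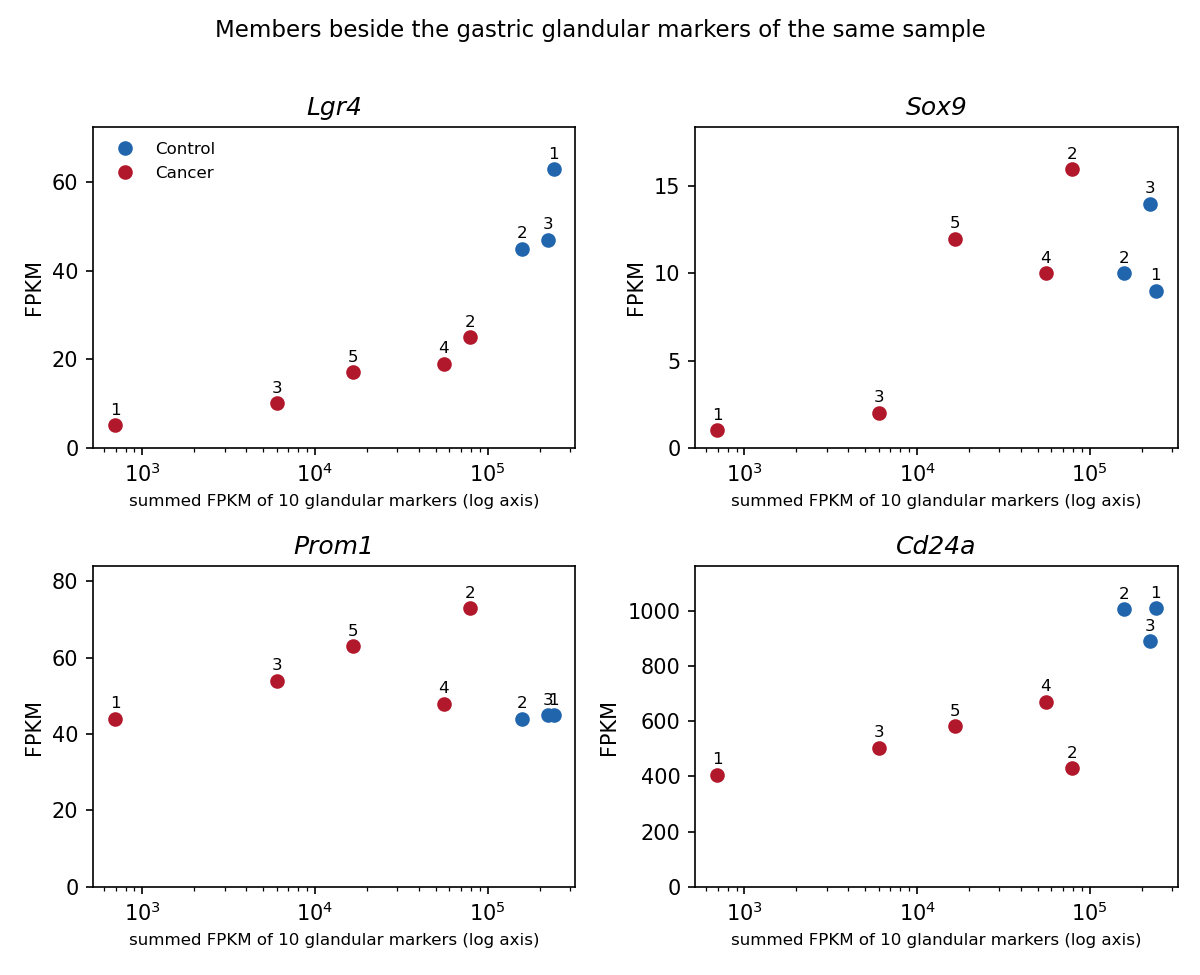
FPKM of Lgr4, Sox9, Prom1 and Cd24a (linear axes from 0) against the summed FPKM of 10 gastric glandular markers (log axis) in each cancer (red) and control (blue), with replicate numbers. Lgr4 rises from 5 to 25 FPKM through the cancers in the order of the glandular sum, whereas Prom1 and Cd24a do not keep that order.

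The sequence upstream of Lgr4, the receptor that fell, is shown beside that of Prom1, the member with the highest fold change, so that the upstream windows can be read side by side. Both are the 250 bases before a gene start listed by RefSeq for GRCm38.p6, 5′ to 3′ on the strand of the gene, and the capitals mark CCAAT boxes found on either strand. Lgr4 is at chr2:109917397-109917646 (plus strand) and Prom1 at chr5:44101737-44101986 (minus strand). The Prom1 window precedes the more upstream of its 2 listed starts, which is also where the deposited row begins (44101736), but it lies within the RefSeq gene, whose span reaches 44102047.
Lgr4: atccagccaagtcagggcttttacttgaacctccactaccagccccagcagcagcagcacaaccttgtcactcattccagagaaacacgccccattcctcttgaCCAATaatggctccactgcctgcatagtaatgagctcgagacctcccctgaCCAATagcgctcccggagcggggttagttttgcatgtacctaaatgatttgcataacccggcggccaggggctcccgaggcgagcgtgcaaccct
Prom1: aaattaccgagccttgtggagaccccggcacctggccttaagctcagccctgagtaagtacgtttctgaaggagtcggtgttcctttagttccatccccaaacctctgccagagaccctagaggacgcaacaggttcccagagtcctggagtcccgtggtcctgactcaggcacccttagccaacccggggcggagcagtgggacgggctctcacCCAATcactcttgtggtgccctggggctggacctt
Lgr4 held 2 CCAAT boxes and Prom1 held 1, and 33.8% of 32851 RefSeq promoters of that length held at least 1. The core of TCF/LEF sites, CTTTGA, through which Wnt signals act, was in neither window on either strand and in 13.8% of all promoters. Lgr4 held 10 CpG and Prom1 held 9, where the median promoter held 6. Promoter entries matched 6 of the 9 members (Lgr4, Lgr6, Lrig1, Bmi1, Prom1 and Tnfrsf19), and the TCF/LEF core was found before 1 of the Tnfrsf19 starts and before none of the others. A match is a description of the letters and shows no binding.

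Lgr5 (chromosome 10, 115450314 to 115587780, minus strand) was close to the lowest value the table can hold in both groups. It was at 0, 2, 1, 1 and 0 FPKM in the cancers and at 0, 1 and 1 in controls, so the groups overlapped. The log2 fold change was 0.05 (SE 0.44, 95% interval -0.96 to 1.06, limma adjusted p = 0.94). Its sign turned with quantile normalization (-0.21), with a pseudocount of 0.1 (-0.04) and with array weights (-0.12). Short stretches of Lgr5 transcripts are at least 95% identical to many other genes. The longest, of 146 bases, is 95.2% identical to Mau2, which has a row in the table. The part of such reads in the Lgr5 values was not tested. Olfm4 and Ascl2, other markers of Lgr5+ intestinal stem cells, were also near the floor, at 0, 1, 1, 1 and 1 against 2, 2 and 2 FPKM for Olfm4 and at 0, 7, 0, 1 and 1 against 0, 1 and 1 for Ascl2. Lgr6 (chromosome 1, 134986353 to 135105276, minus strand), a receptor best known from skin and tongue, was at 1 FPKM in cancer 4 and listed at 0 in the other cancers and the 3 controls. Among the 3 receptors Lgr4 therefore held nearly all of the signal in both groups, and per length the lowest Lgr4 value (5 FPKM, cancer 1) was above the highest Lgr5 value (2 FPKM, cancer 2).

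Of the 18 genes tested in the list of R-spondin and Wnt ligands, receptors and partners, 2 were higher and 3 lower, shares below those over all genes tested (16.2% higher and 18.3% lower). The list's median log2 fold change was -0.17, beside -0.04 over all genes, and with TPM 0.47 beside 0.76. The balance of calls turned with the scaling, as that over all genes did. It was 5 higher and 1 lower with TPM (49.5% and 3.9% of all genes). With equal sums apart from the glandular markers it was 4 and 1, beside 5396 and 827 of all 14357 genes tested. Rspo4, which encodes an R-spondin, was at 32, 19, 9, 5 and 28 FPKM in the cancers and listed at 0 in the 3 controls (limma adjusted p = 0.0028), and it passed under all alternatives run. Rspo1 was at 0, 1, 0, 0 and 0 FPKM in cancers and 1, 1 and 2 in controls (limma adjusted p = 0.032), on values of 2 or less. The Rspo1 call was lost with TPM (0.092) and with equal sums apart from the glandular markers (0.075), without control 1, 2 or 3 (0.072, 0.070 and 0.115) and without cancer 1, 3, 4 or 5 (0.060, 0.068, 0.054 and 0.059). Rspo2 was listed at 0 in all 8 samples, and Rspo3 was at 0 to 3 FPKM with no difference past the threshold. Rspo4 was the only R-spondin gene of the 4 above 3 FPKM in any sample.

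Fzd5, a Frizzled receptor for Wnt ligands, fell along with Lgr4. It was at 1, 10, 3, 5 and 5 FPKM in the cancers and at 28, 17 and 23 in controls, without overlap (log2 change -2.21, SE 0.50, limma adjusted p = 0.015). Without control 1 or control 3 the adjusted p was 0.062 or 0.052 from limma. Rnf43, the ligase that R-spondins clear, was at 0, 7, 1, 4 and 2 FPKM in cancers and 5, 5 and 7 in controls and did not pass (log2 change -1.14, limma adjusted p = 0.18). Znrf3, its relative, was at 1 to 2 FPKM in cancers and 2 to 3 in controls. Lrp6, a Wnt co-receptor, was at 7, 5, 7, 6 and 12 FPKM in cancers and 12, 13 and 13 in controls (log2 change -0.75, limma adjusted p = 0.045), a direction that turned with TPM (0.13). The Lrp6 call was also lost with median ratios (limma adjusted p = 0.134), quantile normalization (0.070) and equal sums apart from the glandular markers (0.76), and without control 1, 2 or 3 (0.108, 0.121 and 0.118) or cancer 1, 2, 3 or 4 (0.078, 0.065, 0.088 and 0.075). Axin2, a feedback target that Wnt signals raise in most tissues, was at 3, 4, 4, 2 and 10 FPKM in cancers and 1, 1 and 1 in controls (log2 change 1.34, SE 0.38, limma adjusted p = 0.031). The Axin2 call was lost with quantile normalization (limma adjusted p = 0.085) and without control 1, 2 or 3 (0.092, 0.089 and 0.089) or cancer 2 or 3 (0.050 and 0.065). The Wnt targets Nkd1, Notum and Sp5 were at 0 to 4 FPKM in all samples and did not pass.

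Cd24a (chromosome 10, 43579169 to 43584265, plus strand), which encodes a small sialoglycoprotein anchored to the cell surface, was the most abundant member in every sample. It was at 407, 429, 505, 671 and 582 FPKM in cancers 1 to 5 and at 1011, 1007 and 891 in controls 1 to 3. All cancers lay below all controls, and the spread within the cancers was 1.65-fold. Cancers had a mean of 519 ± 109 (SD, n = 5) and controls of 970 ± 68.2 (SD, n = 3), which puts the cancer mean at 53.5% of that of controls. The log2 fold change was -0.92 (SE 0.22, limma adjusted p = 0.018; exact permutation p = 0.018), and it was near 0 with TPM (0.05, limma adjusted p = 0.85). The Cd24a call was also lost without control 1 or 2 (both limma adjusted p = 0.063), with median-ratio scaling (-0.68, 0.054), with quantile normalization (-0.41, 0.17) and with equal library sums apart from the glandular markers (-0.22, 0.44). A stretch of 218 transcript bases is 96.8% identical to Gm6212, which has no row in the table.

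Prom1 (chromosome 5, 43993622 to 44101736, minus strand), which encodes prominin-1, a glycoprotein of membrane protrusions, was the second most abundant member in the cancers. It shares 424 exonic bases with Gm16401 on the opposite strand. It was at 44, 73, 54, 48 and 63 FPKM in the cancers and at 45, 44 and 45 in controls. Of the 5 cancers 4 were above every control and 1 was level with the lowest, so the groups overlapped at 44 FPKM. The mean was 56.4 ± 11.7 (SD, n = 5) against 44.7 ± 0.577 (SD, n = 3), with a log2 fold change of 0.31 (SE 0.18, 95% interval -0.11 to 0.72, limma adjusted p = 0.20; exact permutation p = 0.18). Prom1 was higher past the threshold under each other scaling, by 0.55 with median ratios (adjusted p = 0.041), 0.74 with quantile normalization (0.014), 1.0 with equal sums apart from the glandular markers (0.0042) and 1.26 with TPM (0.0017), all from limma. The other prominin gene, Prom2, went the opposite way, at 0, 2, 1, 7 and 3 FPKM in cancers and 13, 28 and 27 in controls (log2 change -2.97, SE 0.63, limma adjusted p = 0.012), and stayed past the threshold under all alternatives run.

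**Figure D3:**
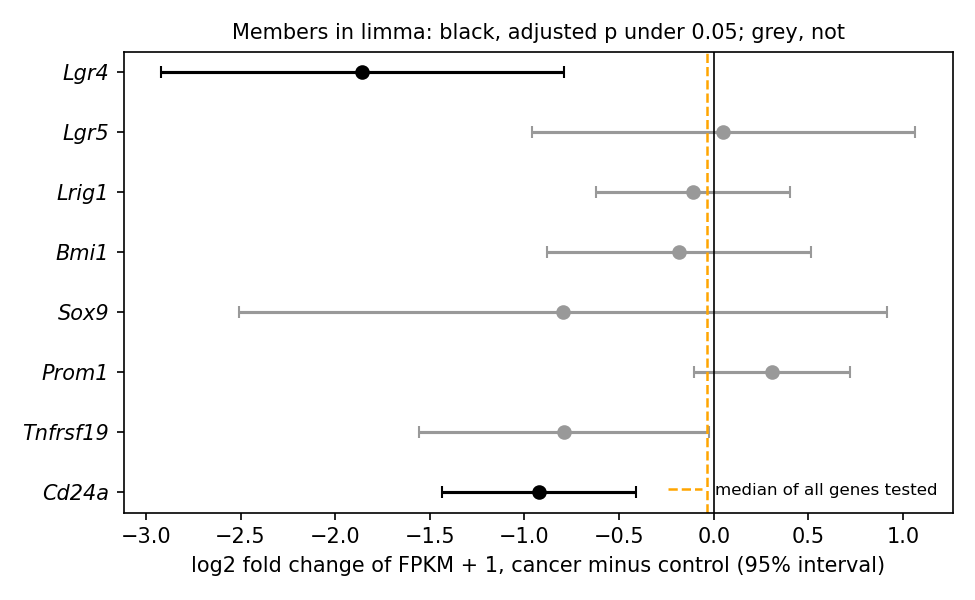
log2 fold change of FPKM + 1 (cancer minus control) of the 8 members tested, with its 95% interval from limma, black where the adjusted p was under 0.05 and grey where it was not. The intervals of Lgr4 and Cd24a lie below 0 and below the median of all genes tested (dashed, -0.04), and that of Sox9 is the widest, from -2.51 to 0.92.

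Sox9 (chromosome 11, 112782210 to 112787757, plus strand), an HMG-box transcription factor of progenitor and Paneth cells, varied most among the cancers. It was at 1, 16, 2, 10 and 12 FPKM in cancers and 9, 10 and 14 in controls. Cancers 1 and 3 lay below every control, cancer 2 above every control, and cancers 4 and 5 within their range. The 16-fold spread among cancers exceeded the difference between the groups (log2 change -0.80, SE 0.74, limma adjusted p = 0.42), and the sign was not kept with TPM (0.02). Sox4, a SOX factor of another group, was at 17, 9, 7, 5 and 20 FPKM in cancers and 7, 12 and 11 in controls, and Sox8, Sox10 and Sox11 were at 0 or 1.

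Tnfrsf19 (chromosome 14, 60963834 to 61046855, minus strand), a TNF receptor family member and Wnt target, was at 0, 1, 0, 1 and 1 FPKM in cancers and 1, 2 and 2 in controls. Cancers 1 and 3, the lowest for Sox9 and Lgr4, were listed at 0. The log2 fold change was -0.79 (SE 0.33, limma adjusted p = 0.097), and Tnfrsf19 passed with quantile normalization (-1.14, 0.026) and with array weights (-1.09, 0.010). Every value was 2 or less after rounding. Its relative Edar was at 4, 1, 3, 1 and 2 FPKM in the cancers and listed at 0 in controls (limma adjusted p = 0.011).

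Lrig1 (minus strand of chromosome 6), a transmembrane protein that restrains EGF receptors and marks a largely quiescent intestinal population, was at 18, 28, 19, 16 and 22 FPKM in cancers and 17, 22 and 28 in controls. The ranges overlapped almost wholly. The means were 20.6 ± 4.67 (SD, n = 5) and 22.3 ± 5.51 (SD, n = 3), and the 95% interval of the log2 fold change (-0.11) was -0.62 to 0.40, with limma adjusted p = 0.72. The sign turned with every other scaling, to 0.12 with median ratios, 0.16 with quantile normalization, 0.57 with equal sums apart from the glandular markers and 0.82 with TPM, where Lrig1 passed as higher (limma adjusted p = 0.018). The row covers 94500314 to 94700145, whereas the RefSeq gene begins at 94604529, and the row reaches into the neighbouring Slc25a26, with which Lrig1 shares 144 exonic bases on the opposite strand. The library kit was directional and the strand setting of the counting is not stated, so reads of the 2 genes may not have been separated.

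The list around the receptors that LRIG1 restrains held EGF receptors and ligands together with Met and Ret, which are receptors of other ligands. Of its 11 genes tested, 4 were lower, all of them EGF receptors or ligands, and 1 (Ret) was higher (18.3% and 16.2% of all genes), with a median log2 fold change of -1.22, and the median stayed below 0 under every scaling, at -0.51 with TPM, where 1 was lower and 1 higher (3.9% and 49.5% of all genes). Erbb3, which signals as the partner of other ERBB receptors, was at 1, 18, 2, 6 and 18 FPKM in cancers and 45, 33 and 48 in controls (log2 change -2.63, limma adjusted p = 0.038). The Erbb3 call was lost with TPM (0.070), equal sums apart from the glandular markers (0.059), quantile normalization (0.051) and a pseudocount of 0.1 (0.053), without each of the 3 controls (0.086 to 0.114) and without cancer 1, 3 or 4 (0.053, 0.081 and 0.063), all still lower. Egfr was at 3, 7, 2, 4 and 6 FPKM in cancers and 14, 9 and 10 in controls (-1.22, limma adjusted p = 0.029; 0.33 with TPM and 0.157 with equal sums apart from the glandular markers), a call also lost without control 1, 2 or 3 (0.111, 0.063 and 0.075) or cancer 1 (0.058). Tgfa, an EGFR ligand, was at 3, 10, 3, 5 and 6 FPKM against 23, 17 and 24 (-1.90, SE 0.35, limma adjusted p = 0.0070) and stayed past the threshold under every scaling. Met, the HGF receptor, was at 6, 7, 5, 6 and 9 FPKM against 9, 9 and 7 (-0.31, limma adjusted p = 0.22). Ret, the receptor of the GDNF family, rose, at 9, 5, 8, 4 and 15 FPKM against 1, 1 and 1 (2.08, SE 0.36, limma adjusted p = 0.0058). Lrig2 and Lrig3, the relatives of Lrig1, did not pass: Lrig2 was at 2 to 4 FPKM in cancers and 2 to 3 in controls, and Lrig3 at 0, 3, 2, 5 and 2 against 5, 6 and 6 (log2 change -1.18, limma adjusted p = 0.11).

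Bmi1 (chromosome 2, 18677018 to 18686629, plus strand), a subunit of Polycomb repressive complex 1 that is needed for self-renewal in several tissues, was at 21, 8, 19, 13 and 12 FPKM in cancers and 17, 18 and 13 in controls. Cancers 1 and 3 were the highest of the 8 samples and cancer 2 the lowest, whereas for Lgr4 and Sox9 cancers 1 and 3 were the lowest of the 5 cancers and cancer 2 the highest. The log2 fold change was -0.18 (SE 0.30, 95% interval -0.88 to 0.51, limma adjusted p = 0.65), and it turned to 0.05 with median ratios, 0.06 with quantile normalization, 0.48 with equal sums apart from the glandular markers and 0.73 with TPM. Bmi1 shares 97.0% of 2658 transcript bases with Gm5946, which is not a row of the table, so reads of the pair could have been mixed.

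Of the 17 Polycomb genes tested 3 were higher and 1 lower, beside 16.2% higher and 18.3% lower over all genes, so the share of higher genes was near that of all genes. The list's median log2 fold change was 0.22, beside -0.04 over all genes. With TPM 14 were higher and 1 lower, where 49.5% of all genes were higher and 3.9% lower, and the median was 1.07 beside 0.76. Cbx6, a chromobox subunit, was at 38, 24, 35, 18 and 24 FPKM in cancers and 3, 5 and 6 in controls (log2 change 2.33, SE 0.29, limma adjusted p = 0.0019). Cbx7 was at 13, 11, 15, 10 and 7 FPKM against 2, 3 and 5 (1.51, limma adjusted p = 0.0081). Pcgf2, also called Mel18 and the closest relative of Bmi1, was at 7, 7, 10, 9 and 9 FPKM against 5, 4 and 5 (0.72, SE 0.16, limma adjusted p = 0.013; 0.058 without control 2). Pcgf3, another member of the same ring-finger family, fell, at 10, 11, 8, 7 and 13 FPKM against 53, 34 and 32 (-1.91, SE 0.24, limma adjusted p = 0.0020). Cbx6, Cbx7 and Pcgf3 stayed past the threshold in the same direction under all alternatives run.

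**Figure D4:**
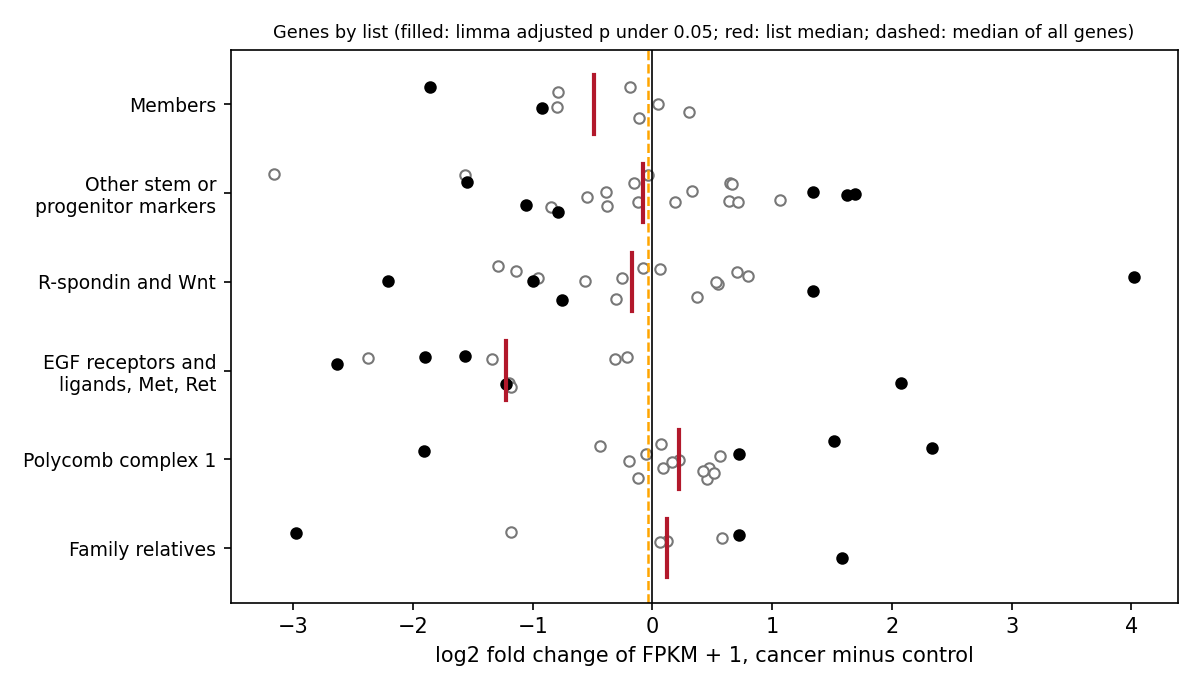
log2 fold change of FPKM + 1 (cancer minus control) of each gene tested in the members' list and 5 related lists, filled where the limma adjusted p was under 0.05, with the list median in red and the median of all genes dashed. The list of EGF receptors and ligands with Met and Ret has the lowest median (-1.22) and the Polycomb list the highest (0.22). Points are spread vertically for legibility.

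Stem and progenitor markers outside the 9 were mixed. Of 22 tested, 3 were higher and 3 lower, with a median of -0.08, beside 16.2% higher, 18.3% lower and a median of -0.04 over all genes. With TPM 5 were higher and 0 lower, with a median of 0.60, beside 49.5% higher, 3.9% lower and a median of 0.76 over all genes. Cd44, a hyaluronan receptor, was at 16, 46, 55, 31 and 32 FPKM in cancers and 8, 10 and 11 in controls (log2 change 1.69, SE 0.37, limma adjusted p = 0.012; 0.054 without control 1). Stmn1, a microtubule regulator of dividing cells, was at 205, 120, 189, 87 and 110 FPKM against 43, 44 and 42 (1.63, limma adjusted p = 0.0064). The third of the higher genes was Axin2, described above. Bhlha15 (Mist1), a factor of secretory chief cells, was at 9, 3, 4, 2 and 8 FPKM against 8, 17 and 26 (-1.55, limma adjusted p = 0.046), a call lost with each other scaling (0.051 to 0.32), with a pseudocount of 0.1 (0.054), with no filter on low values (0.051) and without control 2 or 3 (0.13 and 0.16) or cancer 2, 3 or 4 (0.081, 0.095 and 0.073). Hopx (-1.06) and Olfm4 (-0.79, on values of 2 or less) were the other genes lower. The Hopx call was lost with TPM (limma adjusted p = 0.79), quantile normalization (0.116) and equal sums apart from the glandular markers (0.297), and without control 2 or 3 (0.063 and 0.069), and the Olfm4 call with TPM (0.47), median ratios (0.098), equal sums (0.28), pseudocounts of 0.1 and 0.5 (0.165 and 0.073) and no filter on low values (0.054), without control 1, 2 or 3 (0.124, 0.123 and 0.12) and without cancer 2, 3, 4 or 5 (0.054, 0.070, 0.055 and 0.060). Of 6 proliferation markers 4 were higher and 0 lower, led by Mcm2, Cdk1 and Ccnb1 (log2 changes 1.57, 1.46 and 1.43). With median ratios, with equal sums apart from the glandular markers and with TPM 6 were higher, and with quantile normalization 5. Of all 14357 genes tested, 2995, 5396, 7112 and 2082 were higher under these scalings, in that order. Without control 2 or 3 the limma adjusted p was 0.059 or 0.055 for Cdk1 and 0.0985 or 0.0995 for Ccnb1, and Pcna, the fourth gene called, was at 0.067 or 0.068, so that of the 4 only Mcm2 kept its call without control 2 or control 3. Ccnb1 was also lost without cancer 3 (0.064).

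Set side by side per length, the order of the members differed between the groups. In the controls it ran from Cd24a (970 FPKM) through Lgr4 (51.7), Prom1 (44.7), Lrig1 (22.3), Bmi1 (16), Sox9 (11), Tnfrsf19 (1.67) and Lgr5 (0.667) to Lgr6, listed at 0. In the cancers Cd24a (519) was followed by Prom1 (56.4), Lrig1 (20.6), Lgr4 (15.2), Bmi1 (14.6), Sox9 (8.2), Lgr5 (0.80), Tnfrsf19 (0.60) and Lgr6. Cd24a stood clear of the next gene in both groups, whereas in the controls Lgr4 overlapped Prom1, Prom1 stood clear of Lrig1, and Sox9 stood clear of Tnfrsf19. In the cancers Prom1 stood clear of Lrig1, and all genes from Lrig1 downwards overlapped their neighbours.

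The ratio of the FPKM of 2 genes within a library is the same under any scaling by 1 factor per library. Pairs were counted on the ratio of FPKM + 1, which such a scaling can alter. Among the 6 members that reached 5 FPKM, that ratio did not overlap between the groups for 4 of 15 pairs. The share was 43.8% over all pairs of genes that reached 5 FPKM. The ranges that follow are ratios of FPKM. Prom1 was 71.5 to 170 FPKM per 1000 FPKM of Cd24a in cancers and 43.7 to 50.5 in controls. Bmi1 was 18.6 to 51.6 per 1000 of Cd24a in cancers and 14.6 to 17.9 in controls. The Lgr4 to Prom1 ratio was 0.114 to 0.396 in cancers and 1.02 to 1.40 in controls, and the Lgr4 to Lrig1 ratio 0.278 to 1.19 and 1.68 to 3.71. Lgr4 per Cd24a overlapped, at 12.3 to 58.3 per 1000 in cancers and 44.7 to 62.3 in controls. These ratios show unequal change between 2 genes and not which of them changed.

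**Figure D5:**
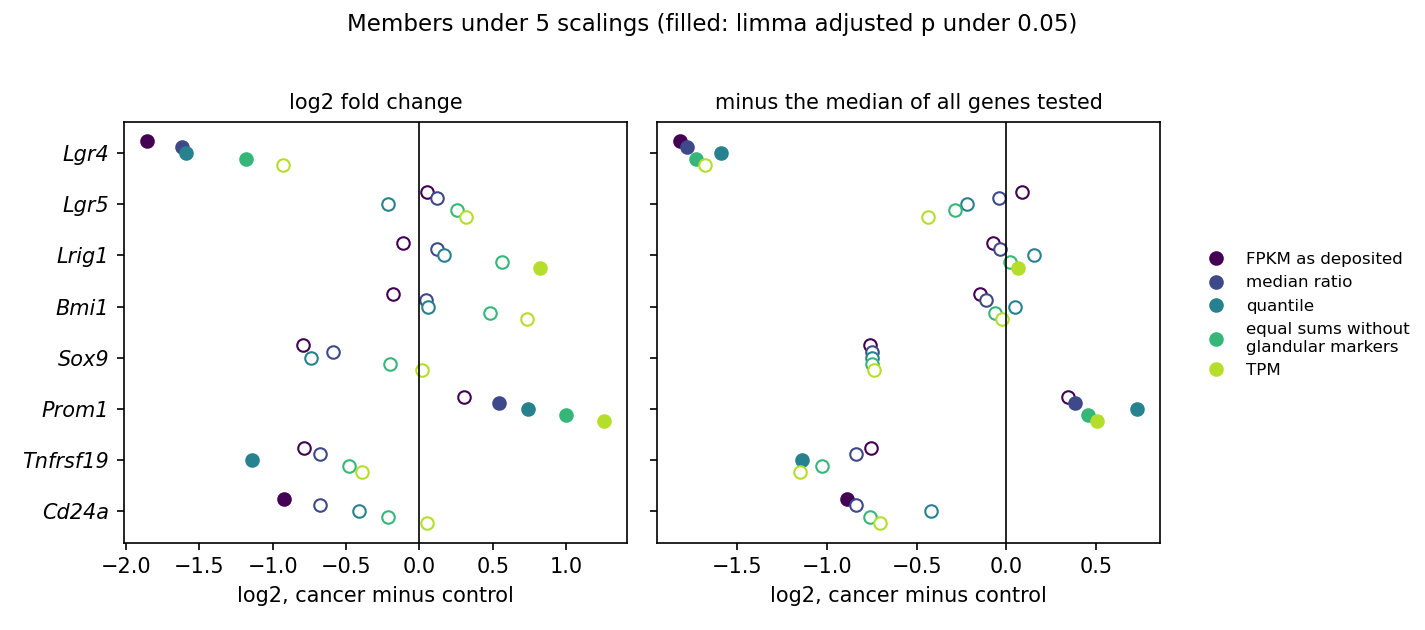
Left, log2 fold change (cancer minus control) of the 8 members tested under 5 scalings of the libraries, filled where the limma adjusted p was under 0.05. Right, the same minus the median over all genes tested under that scaling. Lgr4 lies below 0 in both panels under every scaling, and Cd24a spans -0.92 to 0.05 on the left and -0.89 to -0.42 on the right.

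The log2 fold change at the median of all genes moved with the scaling, from -0.04 for FPKM as deposited to 0.01 with quantile normalization, 0.16 with median ratios, 0.54 with equal sums apart from the glandular markers and 0.76 with TPM. Relative to that median, Lgr5 was at -0.44 to 0.09 and so changed sign, Lgr4 at -1.82 to -1.59, Tnfrsf19 at -1.15 to -0.75, Cd24a at -0.89 to -0.42, Sox9 at -0.76 to -0.74, Lrig1 at -0.07 to 0.16, Bmi1 at -0.15 to 0.05 and Prom1 at 0.34 to 0.73. Of the 5 scalings, Lgr4 passed as lower under 4 and Prom1 as higher under 4. Cd24a passed as lower under 1, as deposited.

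The genes whose profile over the 8 samples was most like a member's were named by the root mean square difference of log2(FPKM + 1) after subtracting each gene's own mean. For Lgr4 these were Fam110c, Slc16a1 and Osbpl3 (differences of 0.13, 0.15 and 0.15). Slc16a1 was at 4, 21, 7, 18 and 11 FPKM in cancers and 53, 35 and 39 in controls. For Cd24a they were Map4k3, Tmem33 and Tpp2 (0.09 each), and Tpp2 was at 13, 12, 16, 18 and 16 FPKM against 32, 32 and 28. For Prom1 they were Vangl1, Stard3nl and Gm7367 (0.07, 0.07 and 0.09), for Lrig1 Ino80b, Slc45a4 and Sgsm3 (0.11 to 0.12), and for Bmi1 Usp16, Fam179b and Zfp119a (0.10 to 0.12). For Sox9 the nearest were Tesc, Vtcn1 and Bspry (0.30, 0.34 and 0.36). These differences are not divided by a gene's own spread, so they do not rank how closely genes tracked each member.

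Markers of other cells were counted in the same way, beside 16.2% of all genes higher and 18.3% lower. Of the genes tested, 3 of 7 simple epithelial markers were higher and 2 lower, 1 of 8 squamous and 1 of 10 glandular markers were lower, 1 of 7 leukocyte and 2 of 4 endothelial markers were higher, and 0 of 6 smooth muscle, 0 of 6 fibroblast, 0 of 1 erythroid and 0 of 2 glial markers passed. The median log2 fold change was nevertheless -4.50 over the glandular and -2.04 over the squamous markers tested, and every cancer lay below every control for 7 of 10 glandular and 2 of 8 squamous markers, beside 19.8% of all genes. Pgc, a glandular marker that encodes a pepsinogen, was at 28832 FPKM in control 1 and listed at 0 in controls 2 and 3. With it left out, the glandular sums were 691, 74170, 5434, 48804 and 16194 FPKM in cancers 1 to 5 and 158537 to 224870 in controls, with the cancers in the order given above. With TPM, where 49.5% of all genes were higher and 3.9% lower, 5 of 6 fibroblast, 3 of 7 leukocyte, 3 of 4 endothelial and 1 of 1 erythroid markers were higher. With equal sums apart from the glandular markers 3 of 6 fibroblast and 3 of 7 leukocyte markers were higher. With median ratios they were 1 of 6 and 2 of 7, and with quantile normalization 1 of 6 and 1 of 7. Of all 14357 genes tested, 5396, 2995 and 2082 were higher under these scalings, in that order. With quantile normalization 0 squamous and 0 glandular markers passed, where 1943 of all genes were lower. The largest called changes were those of Cldn7, Krt7 and Krt8 among the simple epithelial markers (log2 changes 3.77, 3.62 and -2.02), Krt4 among the squamous (-5.0), Gkn1 among the glandular (-3.81), Csf1r among the leukocyte (1.21) and Cdh5 and Pecam1 among the endothelial (1.56 and 1.47). The Krt8 call was lost with TPM (limma adjusted p = 0.109), median ratios (0.053) and equal sums apart from the glandular markers (0.086). Quantile normalization lost Gkn1 (0.206), Csf1r (0.078) and Krt4 (0.056), and Krt4 was also lost with pseudocounts of 0.1 and 0.5 (0.084 and 0.054). Without control 1, 2 or 3 the limma adjusted p was 0.139, 0.103 and 0.106 for Krt8, 0.106, 0.123 and 0.111 for Krt4, 0.098, 0.084 and 0.094 for Gkn1, 0.107, 0.065 and 0.103 for Csf1r and 0.058, 0.055 and 0.054 for Cdh5. Pecam1 was lost without control 1 or 3 (0.064 and 0.054). Leaving out a cancer lost Krt8 (cancer 1, 3 or 5; 0.061, 0.098 and 0.080), Krt4 (cancer 1, 2 or 3; 0.051, 0.074 and 0.076), Gkn1 (cancer 3 or 5; 0.080 and 0.067) and Csf1r (cancer 3; 0.069). Cdh1, the epithelial cadherin, was at 52, 173, 70, 112 and 121 FPKM in cancers and 390, 304 and 318 in controls, and Epcam, also epithelial, at 314, 315, 394, 379 and 592 against 183, 159 and 173. The Cdh1 call was lost without control 1 (limma adjusted p = 0.051). Cancers 1 and 3, lowest for Lgr4, Sox9 and Tnfrsf19, were also lowest for Cdh1. Leukocyte markers summed to 399, 110, 226, 588 and 305 FPKM in cancers and 67 to 222 in controls. Without S100a8, a gene of this list at 549 FPKM in cancer 4, they were 393, 104, 114, 39 and 82 in cancers and 23 to 46 in controls. Cancer 4 thereby went from the highest to the lowest of the cancers. Cd79a, a B cell marker, was at 68 in cancer 1 and at 0 to 2 elsewhere. The part of these cells in the members' values was not tested.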

How the data were processed

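RNA of 5 SCJ cancers and 3 control SCJ tissues was sequenced as polyA+ directional libraries. Per the submitters' processing notes and the study's methods, the authors trimmed reads with cutadapt 1.8, aligned with TopHat2 2.0.13 and generated FPKM with cuffquant and Cuffnorm 2.2.1 on UCSC mm10 genes. The deposited FPKM are rounded to whole numbers (100% whole) and were therefore treated as a score and not as counts; the option of Cuffnorm is not given in the sources used here, and depth is unknown. Rounding leaves few steps at low values.

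The 14357 of 23361 genes that reached 1 FPKM in 3 or more samples were compared by limma 3.58.1 (lmFit, eBayes with trend, R 4.3.3) as log2(FPKM + 1), without a block, with Benjamini-Hochberg adjustment over all genes tested and a threshold of 0.05. Fold changes on this scale understate changes of low genes. For single members an exact permutation test (two-sided, 56 divisions of the samples) was added. The labels do not tie samples to animals, so p-values measure the spread between these samples.

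The members and the other 16 lists (163 of 165 entries matched) were chosen with earlier results of these data known. Named genes are all members, the 3 largest changes past the threshold in each other list, their receptors, ligands and relatives, and the 3 genes most like each member that reached 5 FPKM; Cdh1, Epcam, Cd79a, Ascl2, Nkd1, Notum and Sp5 were named after their values were seen. Ratios and the scaling without glandular markers were chosen after seeing the data. The other alternatives were pseudocounts of 0.1 and 0.5, filters, TPM, median ratios, quantile normalization, array weights, a replicate block, eBayes with no trend and leaving out each sample. Same-numbered samples did not deviate together (correlations -0.02, -0.19 and -0.10). That cannot exclude a pairing, and the labels state none by replicate number. Promoters are RefSeq's for GRCm38.p6, and overlaps are from GENCODE.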

Additional observations from a re-analysis of the deposited data

Results flagged for a closer look

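Among the 9 members, Lgr6 was the only 1 with a cancer far from the other cancers. It was at 1 FPKM in cancer 4 and listed at 0 in the others, so the gap to the nearest sample was the whole range (a ratio of 1, above the 95% limit of 0.71 for 5 samples). After rounding this is a single step, and chance alone marks about 1 in 20 groups.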

How the results depend on the processing

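The main counts were 2326 genes higher and 2622 lower, and 0 members higher and 2 lower. Genes higher and lower numbered 7112 and 560 with TPM, 5396 and 827 with equal sums apart from the glandular markers, 3909 and 4239 with array weights, and 982 and 552 with the replicate block. With a mean FPKM of at least 5 they numbered 1244 and 2275, with median ratios 2995 and 1721, and with quantile normalization 2082 and 1943. Members higher and lower were 2 and 0 with TPM, 1 and 1 with median ratios and with equal sums, and 1 and 2 with quantile normalization. They were 0 and 0 with the replicate block, whose numbers are not stated to pair the samples (Lgr4 -2.12, adjusted p = 0.11, and Cd24a -1.12, 0.082, from limma). Leaving out each sample in turn gave 1369 to 2466 genes higher, 1121 to 2786 lower and 0 to 2 members lower.

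Log2 fold changes of members turned in sign as follows. With TPM they were 0.82 for Lrig1, 0.73 for Bmi1, 0.020 for Sox9 and 0.052 for Cd24a. With median ratios they were 0.12 for Lrig1 and 0.046 for Bmi1, with quantile normalization 0.16 for Lrig1, 0.056 for Bmi1 and -0.21 for Lgr5, and with equal sums apart from the glandular markers 0.57 for Lrig1 and 0.48 for Bmi1. Lgr5 was at -0.044 with a pseudocount of 0.1 and at -0.12 with array weights. Leaving out each sample in turn, Lgr5 ran from -0.28 (without control 1) to 0.23 and Lrig1 from -0.28 to 0.061 (without control 3). Lgr4 stayed lower and Prom1 higher under every alternative, as did Tnfrsf19 (lower) wherever it was tested, which it was not with the stricter filter (mean FPKM of 5). Of 150 values of single members under the alternatives, 115 kept direction and side of the threshold, 18 changed sign, 12 lost and 7 gained the threshold (1 of each also among those that changed sign). The replicate block lost 22 of the 45 calls of genes in the other lists and turned 0. Beyond the construction of each alternative, the cause was not tested. Unknown depth and rounding limit Lgr5, Lgr6 and Tnfrsf19, whose steps of 1 FPKM are as large as their levels.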
